A study of Mus musculus with 2 samples.

Results

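Calca is the gene for calcitonin gene-related peptide (CGRP). Calca+ cytokine-zero cells are lung group 2 innate lymphoid cells (ILC2s) in which transcripts of Calca were captured and none of Il5, Il13 or Il2. They were picked from single-cell RNA profiles by a fixed rule on raw counts of unique molecular identifiers (UMIs, each standing for 1 captured transcript). Barcodes with 500 or more genes and no more than 10% of their UMIs from mitochondrial genes were kept. A kept barcode counted as a Calca+ cytokine-zero cell when it had 2 or more Calca UMIs and 0 UMIs of Il5, Il13 and Il2. The rule found 845 such cells among 15481 kept cells, 451 of 8394 in the WT library and 394 of 7087 in the Pac1-/- library. Calca and the 3 cytokines therefore chose these cells, and their values are given only as a description.

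The series compared ILC2s of WT mice with ILC2s of Pac1-/- mice, which lack PAC1 (phosphatase of activated cells 1), the MAP kinase phosphatase encoded by Dusp2. Cells were sorted from lung as live Lineage- CD90.2+ ST2+ Sca-1+ cells, pooled over mice of 1 genotype, and about 13000 per genotype were loaded for droplet sequencing without any stimulus given in the labels. Each genotype was represented by 1 library, so genotype and library cannot be told apart, no test between genotypes is possible, and cells of 1 library are not replicates. A pool of several mice stands behind each library, and cells were not tied to single mice. The libraries held 56182065 UMIs (WT) and 60283285 UMIs (Pac1-/-) over all barcodes, and the median depth of kept cells was 4186.5 and 5577 UMIs. The libraries shared 29 barcode sequences, 15 of them kept in both and 0 of them among the Calca+ cytokine-zero cells. All intervals below are exact 95% intervals that cover counting error only.

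ILC2s live in barrier tissues, lack antigen receptors and respond to epithelial alarmins and to signals from nerves. CGRP is a neuropeptide best known from sensory neurons and pulmonary neuroendocrine cells. It acts through a receptor made of CALCRL, a G protein-coupled receptor, and RAMP1, an accessory protein, and raises cAMP, which activates protein kinase A and CREB-family transcription factors. When RAMP3 takes the place of RAMP1, CALCRL responds mainly to adrenomedullin. Lung ILC2s are known both to respond to CGRP and to express Calca themselves.

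Calca lies on the minus strand of chromosome 7, from 114631478 to 114636357 in GRCm38. Its gene-level count sums the transcripts for calcitonin and for CGRP, which differ by alternative splicing and in their 3′ ends. Transcript Calca-201 ends at 114631478 and transcript Calca-202 at 114633293, and the deposited counts do not separate them. Values below are therefore those of the gene, not of either peptide.

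In WT 5.37% of kept cells met the rule (4.90 to 5.88, exact binomial), and in Pac1-/- 5.56% did (5.04 to 6.12). With cells thinned at random to 2000 UMIs before the rule was applied, the shares were 6.20% (5.67 to 6.77) in WT and 5.26% (4.72 to 5.83) in Pac1-/-, so that the order of the libraries turned. Thinning left out cells under 2000 UMIs, 914 of 8394 in WT and 617 of 7087 in Pac1-/-. The thinned shares are therefore of 7480 and 6470 deeper cells, not of all kept cells. The share without a cytokine among cells with 2 or more Calca UMIs was 15.4% in WT (451 of 2931) and 20.1% in Pac1-/- (394 of 1958). It depended on depth. At 2000 to under 4000 UMIs per cell it was 35.2% in WT and 48.7% in Pac1-/-, and at 8000 UMIs or more it was 3.13% and 8.33%. A count of 0 for the cytokines therefore means that no transcript was captured at the depth of that cell.

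**Figure D1:**
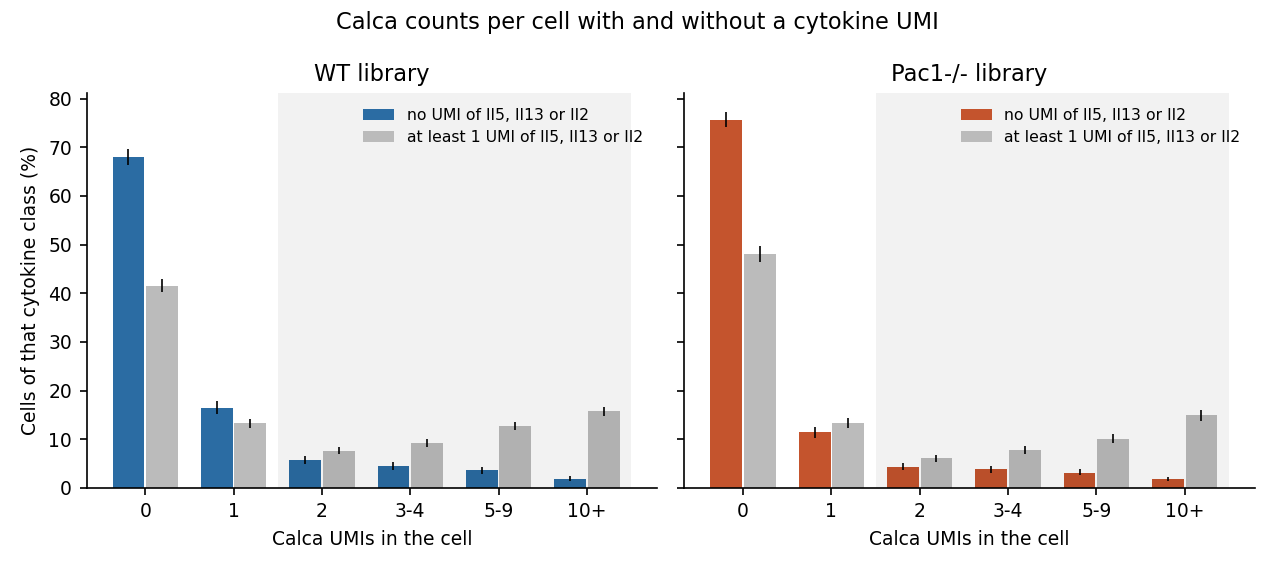
Share of cells (%) by Calca UMI count, in the WT library (left) and the Pac1-/- library (right), for cells without (coloured) and with (gray) a UMI of Il5, Il13 or Il2. Error bars are exact binomial intervals and the shaded classes meet the Calca threshold. In both libraries a larger share of cells with a cytokine than of cells without one reached each class from 2 UMIs upward, and 68.0% (WT) and 75.7% (Pac1-/-) of cytokine-zero cells had 0 Calca UMIs.

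Most Calca+ cytokine-zero cells lay close to the threshold. Just inside it, at exactly 2 Calca UMIs, were 164 WT and 130 Pac1-/- cells, and just outside it, at 1 Calca UMI, were 478 and 348 cytokine-zero cells. Classes of 3 to 4 UMIs held 128 and 115 cells, classes of 5 to 9 held 104 and 96, and 55 and 53 cells had 10 or more. The median was 3 Calca UMIs per cell in both libraries, with a highest count of 27 in WT and 38 in Pac1-/-. The top 10% of cells held 30.2% of all their Calca UMIs in WT and 32.6% in Pac1-/-. Summed over the cells, the level of Calca was 1031 CPM (counts scaled to library size, here to all UMIs other than Calca; 2181 UMIs) in WT and 776 CPM (2085 UMIs) in Pac1-/-.

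B-like barcodes served as a gauge of free RNA in the same libraries. Whether they held ILC2 transcripts only as free RNA was not tested. Of B-like barcodes (at least 2 B cell markers), 3 of 10 in WT (30%; 6.67 to 65.2) and 3 of 23 in Pac1-/- (13.0%; 2.78 to 33.6) also had 2 or more Calca UMIs, at median depths of 4297.5 and 4652 UMIs. Over all kept cells the share with 2 or more Calca UMIs was 34.9% in WT and 27.6% in Pac1-/-, so a Calca count of 2 was not separated from this background, which rests on few barcodes. Barcodes outside the filter had 587 CPM of Calca in WT, against 493 CPM in kept cells, and 285 CPM in Pac1-/-, against 351 CPM. The part of free Calca RNA in the choice of single cells was not tested.

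To see what else set the Calca+ cytokine-zero cells apart, each was paired within its library with the cytokine-zero cell without Calca nearest in depth. Pools of 1976 WT and 2307 Pac1-/- cells were available for this, and all Calca+ cytokine-zero cells were paired. Median depth was 4061 UMIs against 4056 in the matched WT cells and 5596.5 against 5589.5 in the matched Pac1-/- cells. At the same depth they had fewer detected genes, with medians of 1456 against 1537 in WT and 1888 against 2017.5 in Pac1-/-. Mitochondrial UMIs were at medians of 2.39% against 2.55% and 3.31% against 3.28%. The part of this difference in the number of detected genes in the ratios below was not tested.

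The targeted gene followed the labels. Dusp2 gave 55 UMIs (26.0 CPM) in the WT Calca+ cytokine-zero cells and 67 UMIs (32.0 CPM) in their matched cells, and 0 UMIs in either class of the Pac1-/- library. Identity markers of ILC2s were present as well. At least 1 UMI of Gata3, the lineage-defining transcription factor, or of Il1rl1, which encodes ST2, was found in 446 of 451 WT cells (98.9%) and 390 of 394 Pac1-/- cells (99.0%), and in 98.0% of the matched WT cells. The sort on ST2 and the level of both genes in ILC2s make these shares a check of the label and not a finding.

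Markers of pulmonary neuroendocrine cells, the other known Calca-expressing cells of the lung, were at or near 0. Among 8 such markers, Chga, Uchl1, Resp18, Insm1 and Ncam1 had 0 UMIs in the Calca+ cytokine-zero cells of both libraries, and the summed level of all 8 was 0.473 CPM in WT and 0.372 CPM in Pac1-/-. T cell markers other than Cd3g, Trbc1 and Trbc2, which ILC2s express, summed to 12.3 CPM against 18.6 CPM in matched WT cells and to 7.81 against 9.91 CPM in Pac1-/-. Cd3g itself was at 81.8 against 140 CPM in WT and 88.9 against 110 CPM in Pac1-/-. Of 6 mast cell and basophil markers, 5 were at 0 in WT, whereas Pac1-/- had 72 Mcpt8 UMIs, all in 1 cell. B cell markers summed to 66.7 against 71.6 CPM in WT and to 74.4 against 128 CPM in Pac1-/-, mostly Ighm. Endothelial markers summed to 42.5 against 28.6 CPM in WT and 42.4 against 32.0 CPM in Pac1-/-. The 1 endothelial gene compared was past 1.5-fold higher in both libraries, as were 1.74% of all genes. Epithelial markers were at 35.5 against 29.1 and 43.9 against 41.2 CPM. Erythroid markers were lower, at 30.3 against 36.3 and 64.7 against 78.2 CPM, and stromal markers at 0 against 22.9 and 0.372 against 0.381 CPM. The part of these other transcripts in the ratios below was not tested.

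Cytokines outside the rule were not all at 0. Il9 gave 0 UMIs in both libraries, whereas Il4 gave 38 UMIs in WT Calca+ cytokine-zero cells against 33 in matched cells and 32 against 46 in Pac1-/-. Csf2, which encodes GM-CSF, was at 941 CPM in WT and 1176 CPM in Pac1-/-. Areg, which encodes the epidermal growth factor family ligand amphiregulin, was at 703 and 739 CPM. In matched cells Csf2 was at 694 and 758 CPM and Areg at 439 and 433 CPM. Of Calca+ cytokine-zero cells, 61.9% in WT and 70.8% in Pac1-/- held Csf2 UMIs, but so did 3 of 10 (30%) and 15 of 23 (65.2%) B-like barcodes. The share with Csf2 was thus not separated from that of B-like barcodes in Pac1-/-. In WT the 10 barcodes, with an interval of 6.67 to 65.2%, do not separate it either.

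Genes were then compared between Calca+ cytokine-zero cells and matched cells on CPM, and a gene was counted as higher or lower past 1.5-fold when both classes together held at least 50 UMIs. Of 6686 genes in WT, 279 were higher (4.17%) and 624 lower (9.33%). Of 7654 genes in Pac1-/-, 242 were higher (3.16%) and 456 lower (5.96%). The second library was the only repeat the design gave, and of 6562 genes compared in both, 114 were higher in both (1.74%) and 57 lower in both (0.869%). The median gene was at a log2 ratio of -0.12 in WT and -0.09 in Pac1-/-, and log2 ratios below are given relative to it. Counted relative to the median gene, 429 genes were higher and 371 lower in WT, 345 and 308 in Pac1-/-, and 164 and 28 in both.

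The genes with the largest ratios in both libraries included a receptor subunit, cAMP-responsive transcription factors, splicing and elongation factors and neutrophil-attracting chemokines. Ramp3, the accessory protein that pairs with CALCRL, was at 193 CPM against 57.7 CPM in matched cells of WT, a relative log2 ratio of 1.86 (1.56 to 2.17). In Pac1-/- it was at 129 against 31.3 CPM (2.13; 1.78 to 2.50). Crem, the cAMP-responsive element modulator, was at 507 against 172 CPM in WT (1.68; 1.51 to 1.86) and at 228 against 58.3 CPM in Pac1-/- (2.06; 1.80 to 2.32). Both ratios were beyond counting error in both libraries, which does not cover free RNA. At full depth, Ramp3 UMIs were in 39.0% of WT and 31.7% of Pac1-/- Calca+ cytokine-zero cells and in 40% and 21.7% of B-like barcodes. Crem UMIs were in 57.0% and 45.2% against 40% and 47.8%. With cells thinned to equal depth, Ramp3 was in 25.5% against 20% in WT and 18.5% against 4.35% in Pac1-/-. Crem was then in 43.2% against 40% in WT and 28.6% against 30.4% in Pac1-/-. Of the others of the 15 that were counted this way, Dgat1 (33.9% against 40%) in WT was also no more frequent at full depth. The same held for Homer1, Cxcl1 and Cxcl3 in both libraries. After thinning, of these only Cxcl1 kept this order, at 12.9% against 20% in WT and 7.67% against 13.0% in Pac1-/-. Dgat1 in WT was at 18.9% against 10%, and Cxcl3 at 3.64% against 0% and 6.35% against 4.35%. Homer1 was at 10.7% against 10% and 8.47% against 0%. B-like barcodes numbered 10 and 23, so their shares have wide intervals. The part of free RNA in the ratios to matched cells was not tested. Nr4a3, an orphan nuclear receptor induced by cAMP and by activation, was at 705 against 281 CPM in WT (1.45; 1.31 to 1.59) and at 352 against 129 CPM in Pac1-/- (1.53; 1.35 to 1.72). Dgat1, which catalyses the last step of triglyceride synthesis, was at 121 against 36.7 CPM in WT (1.83) and at 68.8 against 26.7 CPM in Pac1-/- (1.45).

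Cwc25, Tfip11, Ell2 and Jdp2 were also among the 15. Cwc25, a spliceosome-associated protein, was at 387 against 153 CPM in WT (relative log2 ratio 1.46) and at 164 against 63.7 CPM in Pac1-/- (1.45). Tfip11, which takes part in spliceosome disassembly, was at 80.4 against 33.9 CPM (1.37) and 50.6 against 21.7 CPM (1.31). Ell2, an elongation factor of RNA polymerase II, was at 269 against 118 CPM (1.31) and 147 against 57.2 CPM (1.45). Jdp2, a repressor of the AP-1 family, had relative log2 ratios of 1.47 in WT and 1.48 in Pac1-/-. Each of these ratios was of similar size in both libraries, although the levels in Pac1-/- were lower for Cwc25, Tfip11 and Ell2.

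The rest of the 15 included Cxcl1, Cxcl3 and Plaur. Cxcl1, a neutrophil-attracting chemokine, was at 185 against 80.6 CPM in WT (1.32; 1.05 to 1.59) and at 167 against 50.7 CPM in Pac1-/- (1.81; 1.53 to 2.10). Its UMIs were in 16.4% against 12.0% of WT cells and 14.2% against 8.63% of Pac1-/- cells, with up to 37 and 54 UMIs in 1 cell. In B-like barcodes they were in 4 of 10 (40%) and 4 of 23 (17.4%), so these shares were no higher than those of B-like barcodes. Cxcl3, a related chemokine, was at 47.7 against 4.77 CPM in WT (3.44; 2.51 to 4.55) and at 88.2 against 35.8 CPM in Pac1-/- (1.39; 1.04 to 1.75), the only gene of the 15 whose intervals in the libraries did not overlap. Plaur, the urokinase receptor, was at 50.6 against 17.2 CPM and at 29.8 against 11.4 CPM. The remaining 4 genes, Homer1, Bpnt1, Traf4 and Arl5c, had relative log2 ratios of 1.30 to 1.43 in WT and 1.33 to 1.55 in Pac1-/-. Relative to the median gene, all 15 stayed past 1.5-fold higher in both libraries under each of the 12 alternatives run for single genes. The alternatives that changed only the UMI minimum could move the median gene but not a gene's own ratio, so they were no check of it.

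**Figure D2:**
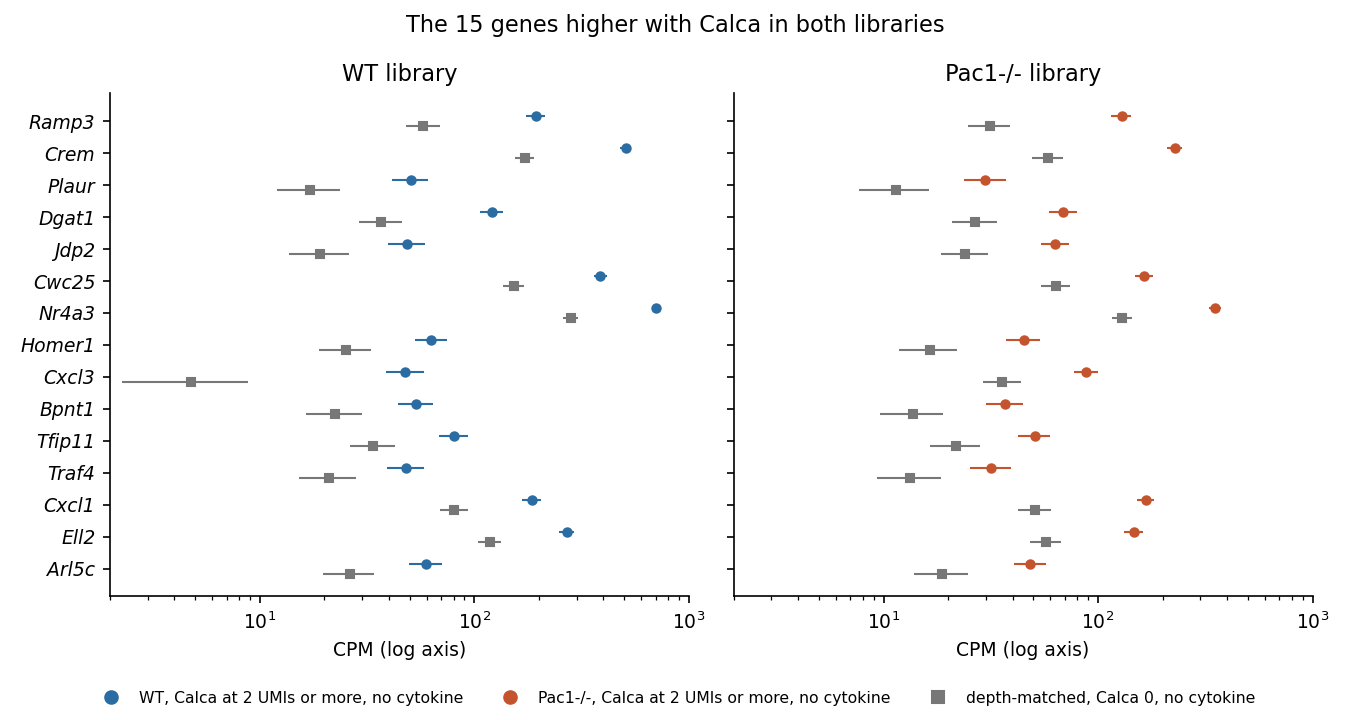
Level (CPM, log axis) of the 15 genes with the largest ratios in both libraries, in Calca+ cytokine-zero cells (circles, WT left and Pac1-/- right) and in depth-matched cytokine-zero cells without Calca (gray squares). Bars are exact Poisson intervals. All 15 genes lie to the right of their matched cells in both panels, Ramp3 at 193 against 57.7 CPM in WT and 129 against 31.3 CPM in Pac1-/-.

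The 15 genes with the largest ratios in the other direction were of low count, each with under 200 UMIs over both classes of a library. Hspb1, a small heat shock protein, was at 13.7 against 38.6 CPM in WT (-1.37; -2.04 to -0.75) and at 12.3 against 24.0 CPM in Pac1-/- (-0.88; -1.53 to -0.25). Few cells carried it, 9 against 9 in WT and 9 against 10 in Pac1-/-, with up to 10 of 29 and 13 of 33 UMIs in 1 Calca+ cytokine-zero cell, which the counting intervals do not cover. Anxa2, a calcium-dependent membrane-binding protein, was at 10.9 against 20.5 CPM in WT (-0.80) and at 5.95 against 20.6 CPM in Pac1-/- (-1.70). The others included Marveld1, Zfyve26, Abhd18, Hexa, Golph3l, Tnfrsf11a, Polk, Haghl, Pip4k2c, Klhl20, Unkl and Znfx1, with relative log2 ratios of -0.63 to -1.13 in WT and -0.65 to -0.98 in Pac1-/-. Fewer lower than higher genes were left at higher counts. With at least 200 UMIs required, 74 genes were higher and 2 lower in both libraries, and Hspb1 in Pac1-/- turned to 0.36 and 0.58 under 2 stricter filters on cells.

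**Figure D3:**
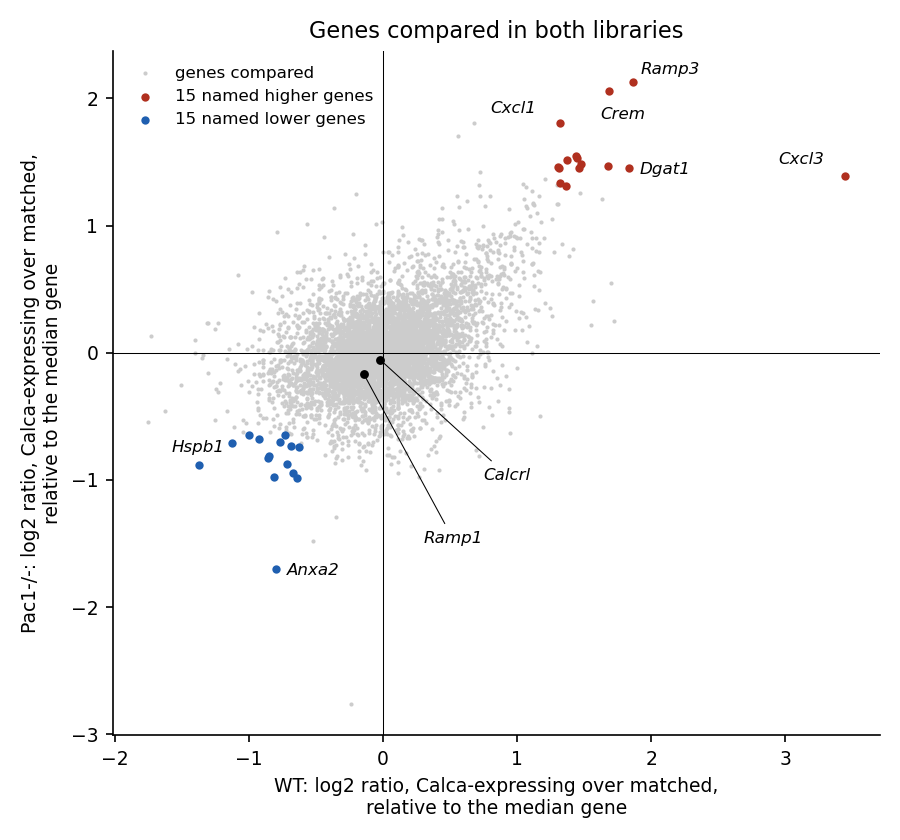
Log2 ratio of Calca+ cytokine-zero cells over matched cells, relative to the median gene, in WT (x axis) and Pac1-/- (y axis) for the 6562 genes compared in both libraries. Red and blue points are the 15 named higher and 15 named lower genes. Ramp3 and Crem lie in the upper right corner, Calcrl and Ramp1 near the origin.

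Promoter sequence is shown for Calca and for 3 genes that were higher with it, because cAMP acts on transcription through the element TGACGTCA or its half-site TGACG, which on the opposite strand reads as CGTCA. Sequences are RefSeq windows of up to 250 bases upstream of the start on GRCm38.p6, 5′ to 3′ on the strand of the gene, trimmed to the bases outside annotated transcripts, and capitals mark the half-site on either strand. Calca lies at chr7:114636358-114636607 (minus strand, 1 half-site), Ramp3 at chr11:6658283-6658520 (plus strand, 0 half-sites), Cwc25 at chr11:97766614-97766863 (minus strand, 3 half-sites) and Nr4a3 at chr4:48045055-48045152 (plus strand, 3 half-sites).
Calca: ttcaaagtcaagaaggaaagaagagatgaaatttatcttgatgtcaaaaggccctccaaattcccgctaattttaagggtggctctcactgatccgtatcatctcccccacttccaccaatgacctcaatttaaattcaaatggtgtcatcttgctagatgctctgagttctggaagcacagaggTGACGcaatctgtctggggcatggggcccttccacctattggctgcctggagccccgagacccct
Ramp3: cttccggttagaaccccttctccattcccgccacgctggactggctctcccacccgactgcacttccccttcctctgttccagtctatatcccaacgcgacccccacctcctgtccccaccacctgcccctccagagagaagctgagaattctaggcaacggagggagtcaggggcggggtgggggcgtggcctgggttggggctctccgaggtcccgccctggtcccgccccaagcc
Cwc25: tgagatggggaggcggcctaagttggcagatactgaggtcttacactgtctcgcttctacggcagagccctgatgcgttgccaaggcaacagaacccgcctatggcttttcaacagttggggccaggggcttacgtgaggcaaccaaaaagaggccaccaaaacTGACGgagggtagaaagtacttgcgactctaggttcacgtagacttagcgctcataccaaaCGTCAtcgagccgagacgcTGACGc
Nr4a3: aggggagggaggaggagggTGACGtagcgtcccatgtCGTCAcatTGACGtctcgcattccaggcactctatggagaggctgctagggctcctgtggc

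The half-site TGACG, read on both strands over 250 upstream bases, was present in 17.8% of all 32851 windows. It was present in 7 of the 12 named higher genes with a window (58.3%), in 4 of 14 named lower genes (28.6%) and in 10 of 11 genes of the cAMP and CREB target list (90.9%). The full element TGACGTCA, which contains the half-site, was present in 1.55% of all windows, in 1 of the 12 higher genes (Ell2) and in 0 of the 14 lower genes. Crem, Dgat1 and Arl5c were among the 15 higher genes and had no window in the table used. A match is a description of these letters and not a binding site, and Ramp3, of the 15 genes the one with the largest ratio in Pac1-/-, had none in its window.

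Ligands and receptors of the CGRP family did not move together. Of the ligands, Calcb, Adm2 and Iapp had 0 UMIs in Calca+ cytokine-zero cells of both libraries, and Adm, which encodes adrenomedullin, had 23 UMIs against 7 in matched WT cells and 40 against 33 in Pac1-/-. Calcrl was at 184 against 203 CPM in WT (relative log2 ratio -0.02) and at 96.7 against 107 CPM in Pac1-/- (-0.05). Ramp1 was at 222 against 267 CPM (-0.14) and 271 against 324 CPM (-0.17). Ramp2 had 1 and 5 UMIs, and Calcr had 0. Both subunits of the CGRP receptor were thus near the median gene. Of the 3 family genes with enough UMIs in both libraries besides Calca, only Ramp3 was past 1.5-fold, as were 1.74% of all genes.

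Genes known to be induced by cAMP and CREB lay above the median gene throughout. Of 13 listed genes, all compared, 6 were higher past 1.5-fold in both libraries, as were 1.74% of all genes, and 0 were lower. Crem and Nr4a3 among the 6 had been named above for their ratios, and the list was chosen with earlier results of these data known. All 13 lay above the median gene in both, as did 32.8% of all genes compared. The list median was 0.52 in WT and 0.76 in Pac1-/- relative to the median gene. Besides Crem and Nr4a3, the 6 were Nr4a1 at 1965 against 1211 CPM in WT and 1072 against 596 CPM in Pac1-/-, Nr4a2 at 614 against 346 and 412 against 228 CPM, Rgs2, a brake on G protein signaling, at 2344 against 1530 and 1697 against 1026 CPM, and Areg. Sik1, Pde4b and Per1 were above the median gene by 0.21 to 0.76. Fosb (0.15 and 0.18) and Dusp1 (0.05 in both) lay next to it.

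A list of 8 of the genes that the study named as responding to CGRP, without Calca itself, came from its bulk RNA and chromatin assays of stimulated ILC2s, not from these libraries. Of 5 with enough UMIs, 3 were higher past 1.5-fold in both libraries (Crem, Gpr65 and Lmo4; 1.74% of all genes) and 5 lay above the median gene in both (32.8%). Crem had already been named above for its ratio. Gpr65, a proton-sensing receptor that raises cAMP, was at 529 against 251 CPM in WT (1.20) and at 179 against 101 CPM in Pac1-/- (0.90). Lmo4, a LIM-domain transcriptional cofactor, was at 1364 against 674 CPM (1.14) and 907 against 555 CPM (0.80). Icos, a costimulatory receptor of ILC2s, was at 220 against 108 CPM (1.15) and at 211 against 143 CPM (0.65), short of 1.5-fold as counted in Pac1-/-. Icos UMIs were in 36.6% of WT Calca+ cytokine-zero cells against 40% of B-like barcodes, and in 48.0% against 26.1% in Pac1-/-. After thinning these shares were 21.8% against 20% and 26.5% against 8.70%. Gpr65 and Lmo4 were more frequent than in B-like barcodes in both libraries. The part of free RNA in these ratios was not tested. Pde4d, a cAMP phosphodiesterase, was at 0.28 in WT and 0.73 in Pac1-/-. Plac8 was too low for the count in WT only and went different ways, with 35 UMIs against 14 in WT and 35 against 40 in Pac1-/-. Tnfrsf9, which encodes 4-1BB, was too low in both libraries, with 32 UMIs against 8 and 26 against 2. Perp was lower in count, with 4 UMIs against 13 and 10 against 17.

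Signal transduction genes upstream of these targets showed little. Of 17 G protein and cAMP signaling genes, 1 (Rgs2) was higher past 1.5-fold in both libraries, as were 1.74% of all genes. The list median was 0.14 in WT and 0.10 in Pac1-/- relative to the median gene. Gnas, the stimulatory G protein subunit, was at 0.16 and -0.02, and the kinase subunit Prkar1a at 0.52 and 0.34. Among receptors for other neural and lipid signals, 0 of 9 passed in both libraries. Ptger4, a prostaglandin E2 receptor, was at 0.32 in both, Adora2a, an adenosine receptor, at 0.71 and 0.42, and Vipr2, a receptor for vasoactive intestinal peptide, at -0.01 and 0.17.

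Chemokine genes did not all go the same way, and Cxcl1 and Cxcl3 among them had been named above for their ratios. Of 6 compared, 4 were higher in both libraries (Ccl1, Cxcl1, Cxcl2 and Cxcl3), as were 1.74% of all genes, with a list median of 1.01 in WT and 0.89 in Pac1-/-. Ccl1, the ligand of CCR8, was at 684 against 358 CPM in WT and at 360 against 195 CPM in Pac1-/-. Cxcl2 was at 1507 against 833 and 1100 against 669 CPM. Cxcl10, an interferon-induced chemokine, went different ways, at 63.4 against 51.5 CPM in WT and 29.0 against 58.3 CPM in Pac1-/-. Ccl5 was past 1.5-fold lower in WT at 26.5 against 42.0 CPM and at 24.6 against 25.2 CPM in Pac1-/-. Of the 7 effector cytokines outside the rule, only Areg was past 1.5-fold in both. Csf2 was at relative log2 ratios of 0.56 and 0.72, Tgfb1 at 0.47 in both, and Tnf was below the median gene at -0.55 and -0.29.

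Activation genes differed in how far they went with Calca. Of 12 NF-kB target genes, 12 lay above the median gene in both libraries (32.8% of all genes) and 2 were past 1.5-fold (1.74% of all genes), Rel at 568 against 293 and 334 against 196 CPM and Nfkb1 at 1585 against 1006 and 1265 against 805 CPM. Of 12 immediate-early genes, only the AP-1 subunit Fosl2 passed in both (831 against 539 and 560 against 299 CPM), as did 1.74% of all genes. Fos was at -0.16 and -0.01 and Egr1 at -0.05 and 0.46. Of 8 feedback inhibitors of ERK signaling 2 passed, as did 1.74% of all genes, both of them MAP kinase phosphatases like PAC1. They were Dusp5 (736 against 389 and 475 against 258 CPM) and Dusp10 (100 against 50.1 and 72.2 against 33.9 CPM). Dusp6 was at -0.01 and -0.10. Of 8 costimulatory and inhibitory receptors and TNF ligands, only Pdcd1, which encodes PD-1, passed in both, as did 1.74% of all genes. Pdcd1 was at 62.4 against 32.9 and 49.5 against 21.0 CPM, and Cd69 was at -0.03 and 0.02.

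ILC2 identity genes lay mostly near the median gene. Of 16, only Rora, a lineage factor of ILC2s, was past 1.5-fold in both libraries, as were 1.74% of all genes. Rora was at 2243 against 1423 and 1518 against 900.2 CPM. Gata3 was at relative log2 ratios of 0.64 and 0.41 and Hes1, a Notch target, at 0.73 and 0.63. Il7r (0.06 and 0.02) and Thy1 (-0.07 and -0.17) differed little. Of 12 quiescence and migration genes 0 passed in both libraries. Txnip was below the median gene at -0.39 and -0.21, and Klf2 was past 1.5-fold higher in WT (0.82) but at -0.15 in Pac1-/-. None of 10 heat shock genes passed, but all 10 lay above the median gene in both libraries, as did 32.8% of all genes. Their median was 0.23 and 0.16.

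Genes for peptide processing were examined because CGRP is cut from a precursor and amidated. Pcsk1, a prohormone convertase, was at 73.3 against 83.0 CPM in WT and 62.5 against 61.0 CPM in Pac1-/-, next to the median gene. Furin, another convertase, was at relative log2 ratios of 0.66 and 0.37. Pam, the amidating enzyme, had 6 and 10 UMIs, Cpe, the carboxypeptidase, 2 and 0, and Pcsk2, Chga and Scg2 had 0 in both libraries. Cpe was thus at or under the limit that a count of 0 allows, 3 UMIs, and Pam above it. Of 11 glycolysis and hypoxia genes 0 passed in both, and Ldha, lactate dehydrogenase A, was at 0.96 and 0.47. Among 6 unfolded protein and integrated stress genes 0 passed in both libraries, with the chaperone Hspa5 at 0.47 in both.

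Ratios were next followed over the Calca count, each class against its own depth-matched cells without Calca. Among the 15 named higher genes, the median relative log2 ratio in WT was 0.69 at 1 Calca UMI, 0.92 at 2, 1.42 at 3 to 4, 1.67 at 5 to 9 and 2.02 at 10 or more. In Pac1-/- it was 0.54, 1.37, 1.44, 1.43 and 2.04. Cells just outside the threshold, with 1 Calca UMI, thus already lay above their matched cells, for 14 of the 15 genes in each library. From 2 UMIs to 10 or more, the relative ratio was higher for 15 of 15 genes in WT and 11 of 15 in Pac1-/-. Among 1544 genes with enough counts in all these classes, it was higher for 49.1% and 48%. Only 5 of the 15 were among these 1544, and all 5 were higher in both libraries. Without called doublets the relative ratio was higher for 14 of the 15 in WT and 8 in Pac1-/-, and without the deepest cells for 12 and 11. The 15 genes were chosen for their ratio over all these classes together, so only the order of the classes is read here, and the top class held 55 and 53 cells.

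Crem rose from 351 CPM at 2 Calca UMIs to 860 CPM at 10 or more in WT, and from 132 to 338 CPM in Pac1-/-. Dgat1 went from 78.5 to 215 CPM in WT and from 56.1 to 99.5 CPM in Pac1-/-. Calcrl went the other way, from 227 to 137 CPM in WT and from 93.9 to 82.1 CPM in Pac1-/-. Over 1544 genes with enough counts, those most like Calca by the smaller of both libraries' rises from 2 to 10 or more UMIs were Hist1h1c, Il4ra, Prdx2, Sytl2, Il2rb, Snhg15, Tuba4a, Ppp1r16b, Eprs and Cdk11b. They are the extremes of 1544 genes, picked for this rise on a top class of 55 and 53 cells, and were not tested. Hist1h1c, a linker histone, rose by 1.38 in log2 ratio as counted in WT and from 142 to 269 CPM in Pac1-/-, but did not follow Calca over the classes between, at 75.3 CPM in WT and 110 CPM in Pac1-/- at 3 to 4 UMIs. Sytl2 did not either, with relative log2 ratios of -0.20 in WT and 0.07 in Pac1-/- at 5 to 9 UMIs, below those at 2 UMIs. Il4ra, the receptor chain shared by IL-4 and IL-13, rose by 1.26 and 1.49 in log2 ratio to matched cells. Il2rb, the beta chain of the IL-2 receptor, rose by 1.05 and 1.08 in this ratio. Its level went from 123 to 317 CPM in WT and from 70.4 to 109 CPM in Pac1-/-. The rise in the ratio thus differs from the change in level, because it also depends on the matched cells of each class.

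**Figure D4:**
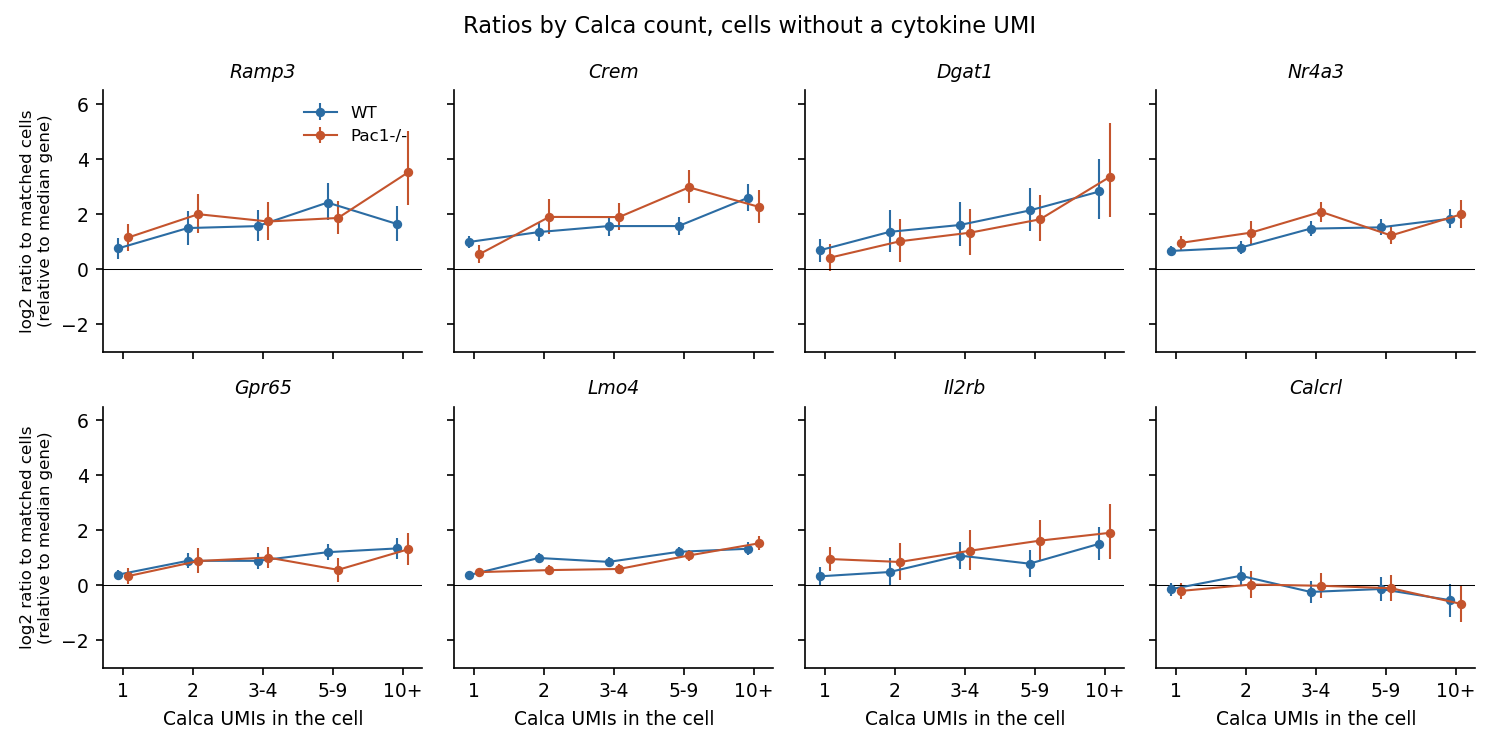
Log2 ratio to depth-matched cells without Calca, relative to the median gene (y axis), by Calca UMIs in the cell (x axis) for 8 genes in cytokine-zero cells of WT (blue) and Pac1-/- (orange), with exact binomial intervals. Crem, Dgat1, Nr4a3, Lmo4 and Il2rb are higher at 10 or more UMIs than at 1 in both libraries, whereas Calcrl falls from -0.14 to -0.54 in WT and from -0.20 to -0.67 in Pac1-/-.

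The nearest other cells were those with 2 or more Calca UMIs and a cytokine UMI (2480 in WT and 1564 in Pac1-/-), matched to the Calca+ cytokine-zero cells in depth with 451 and 394 pairs. Those cells had more Calca, 1530 CPM in WT and 1328 CPM in Pac1-/-. Of 6131 genes compared in both libraries, 134 were higher in the Calca+ cytokine-zero cells (2.19%) and 77 lower (1.26%). Relative to the median gene, which lay at 0.11 and 0.13, 47 were higher and 131 lower. All 15 genes named above lay below the median gene in both libraries, as did 35.2% of all genes, with a median of -0.65 in WT and -0.93 in Pac1-/-, and 5 of them were past 1.5-fold lower in both. Ramp3 was at 193 against 326 CPM in WT and 129 against 273 CPM in Pac1-/-, and Crem at 507 against 739 and 228 against 491 CPM.

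For these 15 genes the Calca+ cytokine-zero cells lay above matched cells without Calca and below cytokine-positive cells with Calca on the relative scale. The 15 genes were chosen for the first of these differences, so only the second was open. The lowest genes against the cytokine-positive cells were Pak1, Raph1, Tubb6, Srrd, Tnfrsf9, Marcksl1, Errfi1, Tent5a, Smox, Tuba1c, Hist1h1c, Cxcl3, Zswim4, Akap12 and Slc18a2. Tent5a was at 173 against 407 CPM in WT and 161 against 328 CPM in Pac1-/-. Pak1, a kinase of the cytoskeleton, was at 26.0 against 62.9 and 12.3 against 37.7 CPM. Errfi1, a feedback inhibitor of the epidermal growth factor receptor, was at 42.1 against 95.5 and 53.2 against 109 CPM. The highest were Xpc, Iqce, Ttc9c, Spopl, Tfg, Trim34a, Nelfb, Rint1, Ttf1 and Nol8, all of low level, and Xpc, a DNA damage sensor, was at 26.5 against 12.3 and 25.7 against 9.69 CPM. Areg was past 1.5-fold lower in both libraries at 703 against 1063 and 739 against 1159 CPM, and so was Cxcl2 at 1507 against 2389 and 1100 against 2632 CPM. Csf2, at 941 against 1377 and 1176 against 1642 CPM, was short of 1.5-fold as counted in both. Calcrl was at 184 against 140 and 96.7 against 84.6 CPM.

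A further comparison, added after the data were seen, asked whether the genes found in Calca+ cytokine-zero cells also went with Calca in cells with a cytokine. It used none of the Calca+ cytokine-zero cells, but depth could not be matched well (median UMIs 8132 against 3965 in WT and 11147 against 6291 in Pac1-/-). Of 10386 genes, 119 were higher (1.15%) and 63 lower (0.607%) in both libraries. Of the 114 genes higher in both libraries in the first comparison, 40 were higher past 1.5-fold here too, and 113 had a log2 ratio above 0 in both libraries, as did 18.7% of all genes. Of the 57 lower genes, 1 passed, and 52 had a log2 ratio below 0, as did 58.7% of all genes. Ramp3 was at 281 against 125 CPM in WT and 175 against 75.9 CPM in Pac1-/-, and 13 of the 15 named higher genes passed in both.

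Genotype was then compared within the Calca+ cytokine-zero cells. Of 5042 genes with at least 100 UMIs, 418 were past 1.5-fold higher in Pac1-/- (8.29%) and 598 lower (11.9%), relative to a median log2 ratio of 0.13. In the matched cells without Calca, 377 of 5339 were higher (7.06%) and 577 lower (10.8%), relative to 0.11. Each genotype was 1 library, and Pac1-/- cells were deeper, with a median of 5596.5 against 4061 UMIs. After thinning to 2000 UMIs, which leaves 412 WT and 378 Pac1-/- cells and fewer genes with enough UMIs, 166 were higher and 280 lower.

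Most of the 15 named higher genes were lower in Pac1-/- cells, both with and without Calca. In Pac1-/- Calca+ cytokine-zero cells 11 of the 15 were past 1.5-fold lower (11.9% of all genes) and 1 higher (8.29%), with a median of -0.74. In matched cells 8 of 11 with enough UMIs were lower (10.8% of all genes), with a median of -0.78. Crem was at 228 CPM in Pac1-/- against 507 CPM in WT, a relative log2 ratio of -1.28 (-1.43 to -1.14), and in matched cells at -1.67. Cwc25 was at -1.37 in both classes. Nr4a3 was at -1.14 and in matched cells at -1.24, and Ramp3 at -0.72 and -0.998. Jdp2 was at 0.24 and 0.22. Cxcl3 was higher in Pac1-/-, at 88.2 against 47.7 CPM (0.75; 0.41 to 1.10), and at 2.80 in matched cells, where WT had 10 UMIs.

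Receptors and response genes were mixed. Calcrl was at 96.7 CPM in Pac1-/- against 184 CPM in WT (-1.06) and in matched cells at -1.04, whereas Ramp1 was at 271 against 222 CPM (0.15; matched 0.17). Of 4 genes of the CGRP response list with enough UMIs, 3 were past 1.5-fold lower with Calca (11.9% of all genes) and 2 in matched cells (10.8%). The study had reported each listed gene for a deficit in CGRP-treated Pac1-/- cells, either of RNA or of open chromatin. The list was thus selected for this direction, so the comparison with all genes is a description and no test of it. Gpr65 was at 179 against 529 CPM (-1.70; matched -1.42), Lmo4 at -0.72 (matched -0.39) and Icos at -0.20 (matched 0.30). Of 12 cAMP and CREB target genes with enough UMIs, 7 were lower past 1.5-fold (11.9% of all genes) and 0 higher, with a median of -0.63. In matched cells 8 of 12 were lower (10.8% of all genes), with a median of -0.74. The NF-kB list had 3 of 11 lower (11.9% of all genes) and a median of -0.44, and -0.43 in matched cells. Heat shock genes were at a median of 0.08, with 0 of 10 lower (11.9% of all genes) and 1 higher (8.29%). Whether the lists differed between genotypes more with Calca than without it was not tested, and Calca itself, used by the rule, was at 776 against 1031 CPM.

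**Figure D5:**
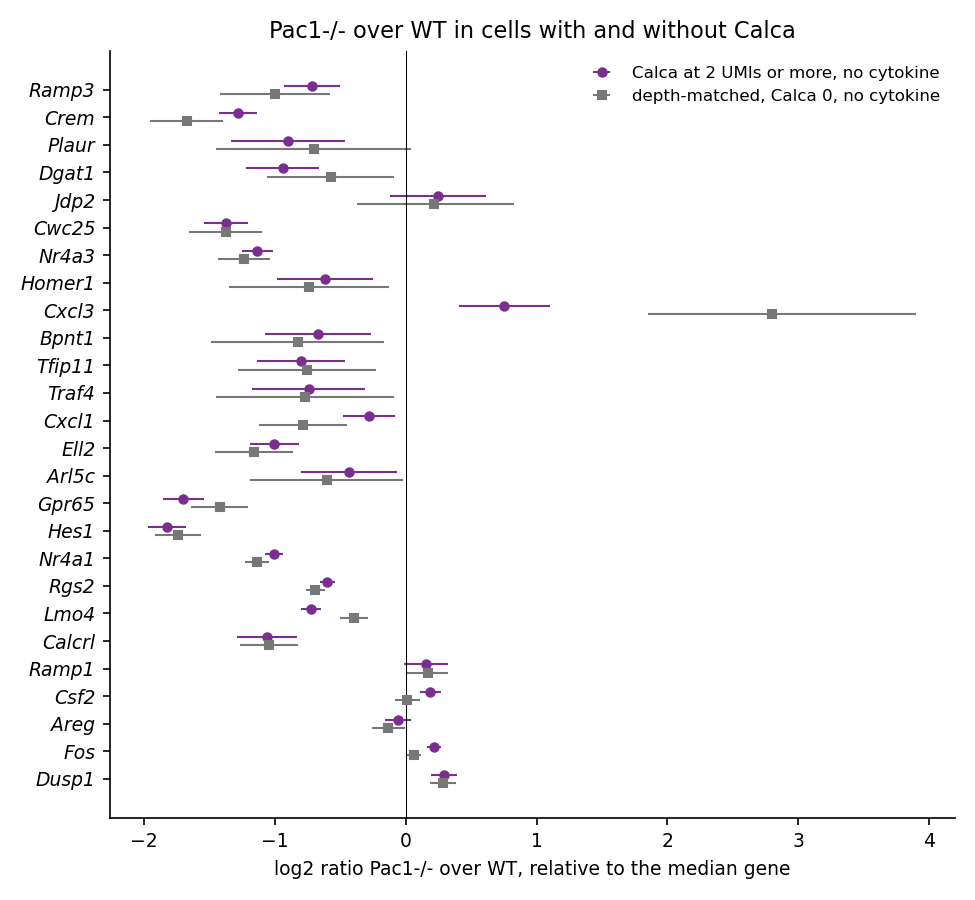
Log2 ratio of Pac1-/- over WT, relative to the median gene (x axis), for the 15 named higher genes and selected list members, in Calca+ cytokine-zero cells (purple circles) and depth-matched cells without Calca (gray squares), with exact binomial intervals. Crem, Cwc25, Nr4a3, Gpr65 and Calcrl lie below -1 in both classes of cells, and Cxcl3 lies above 0 in both, at 0.75 and 2.80.

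The genes with the largest ratios between libraries in Calca+ cytokine-zero cells included 2 that were at 0 in WT. Mmp16, a matrix metalloproteinase, gave 174 UMIs in Pac1-/- and 0 in WT, and Zfp990, a zinc finger gene, 143 and 0. Lgals3, which encodes galectin-3, was at 73.3 CPM in Pac1-/- against 3.78 CPM in WT, a relative log2 ratio of 4.14, and at 3.11 in matched cells. Also higher were Gm47015, Gm8797, Rps27rt, Gm11808, Wdr89, Gm12840 and Hypk, at 1.84 to 3.92. Lower genes included Gm43305, Gm10076, Gm42031, Hist2h2aa1, mt-Atp8, Abcb1b, Sytl3, Trdv4 and Rpl9-ps6, at -4.48 to -1.97. Ribosomal protein copies, predicted genes and histone genes among them have near-identical relatives, so their counts are uncertain. Abcb1b, a drug efflux pump, was at -2.14, and at -0.82 in matched cells, where 33 and 43 UMIs were under the minimum of 100.

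Genes were last ranked by how far the ratio between genotypes differed with and without Calca. Among 4933 genes with enough UMIs in both classes, the lowest by the ratio of ratios were Cxcl3 (-2.04; -3.04 to -1.04), Fes, a tyrosine kinase (-1.45), Tgfbr1, a TGF-beta receptor (-1.35), Cxcl10 (-1.32) and Rrad, a small GTPase (-1.14; -1.48 to -0.80). The highest were Mmp16 (3.08; -1.12 to 7.29), Gm14636 (1.75), Leng9 (1.71), Npnt (1.29) and Cpa3 (1.21). Rrad was at 121 CPM in Pac1-/- against 269 CPM in WT with Calca and at -0.14 in relative log2 ratio without it. These genes are the extremes of 4933 and were not tested. Of the 93 Cpa3 UMIs in Pac1-/-, 51 came from 1 cell.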

How the data were processed

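Droplet 3′ libraries (v3.1 chemistry) of sorted lung ILC2s, 1 pooled library per genotype, were analysed. Per the methods of the study the authors made them with Cell Ranger 6.1.1 against mm10, and the file header names version 4.0.0. The deposited values are raw UMI counts per gene and barcode, without normalization, for barcodes the authors' pipeline called as cells. All columns were used.

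Barcodes with at least 500 genes and at most 10% mitochondrial UMIs were kept, leaving 8394 WT and 7087 Pac1-/- cells. Doublets were not removed, and a caller that scored simulated doublets marked 8.70% and 7.59% of kept cells, which were left out in an alternative. Calca+ cytokine-zero cells were paired 1:1 without replacement, deepest first, with the nearest cytokine-zero cell without Calca by UMIs other than Calca. UMIs were summed per class and divided by the total without Calca to give CPM, with exact Poisson intervals. Log2 ratios used exact conditional binomial intervals, and a prior of 0.5 UMI where a sum was 0. Counts of genes past 1.5-fold required 50 UMIs, or 100 between genotypes. With 1 library per genotype no p-value, standard error or test was computed. The ratios of summed counts were tested on counts simulated for these pairs with set fold changes, and the matching on a small made-up case. The simulated cells of a class shared a profile, without variation between cells or free RNA, so recovery there says little about either. Cells were not clustered. Cells stand for 1 pool of mice per genotype and are not replicates.

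The cells, the 29 gene lists and the comparisons were chosen with earlier results of these data known. Named genes were the 15 highest and 15 lowest by the smaller of both libraries' ratios, listed genes, and for genotype the 10 highest and 10 lowest ratios and the 5 highest and 5 lowest ratios of ratios. Of 292 listed genes, 2 had no single row and were not used. A few genes that the rule names are not reported here. Alternatives changed the depth matching, the Calca threshold, the cell filters, doublets, the UMI minimum, the scaling and the depth. Scripts ran in Python 3.11.15 with scipy 1.17.1 for intervals, numpy 2.4.6 and pandas 2.3.3 for sums, scikit-learn 1.9.0 for the doublet caller and matplotlib 3.10.9 for plots.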

Additional observations from a re-analysis of the deposited data

Results flagged for a closer look

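A pair of genes past 1.5-fold in both libraries went in opposite directions with counting intervals of the ratios as counted that left out equal levels, and the difference between the libraries was not tested. Ss18l2 was at 20.3 CPM in Calca+ cytokine-zero cells against 11.4 CPM in matched cells of WT (log2 ratio as counted 0.83) and at 16 against 26.3 CPM in Pac1-/- (-0.72), a difference between the libraries of -1.55 on the log2 scale. Gm14636 was at 20.3 against 38.2 CPM in WT and at 39.4 against 21.7 CPM in Pac1-/- (log2 ratios -0.91 and 0.86), a difference of 1.77. In all, 7 of 6562 genes were past 1.5-fold in opposite directions in the libraries.

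Barcodes outside the filter, used above only for their Calca level, also held cells that met the Calca and cytokine rule. They were 71 of 2472 such barcodes in WT (2.87%) and 35 of 2408 in Pac1-/- (1.45%), at median depths of 599 and 596 UMIs, where a count of 0 would have allowed up to 0.121% and 0.125%.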

How the results depend on the processing

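Counts of genes moved most with the minimum of UMIs. At 20 UMIs the counts higher and lower were 501 and 1278 in WT, 447 and 896 in Pac1-/-, 202 lower in both, 1199 and 1316 between genotypes, and 342 and 122 in both libraries against Calca-expressing cells with a cytokine. At 200 UMIs they were 139 and 39 in WT, 104 and 38 in Pac1-/-, 74 and 2 in both, 207 and 384 between genotypes, and 11 and 44 against cells with a cytokine. At 1 UMI they were 2049 and 3820 in WT, 2109 and 3051 in Pac1-/-, 544 and 1045 in both, 3143 and 3067 between genotypes, and 1096 and 587 against cells with a cytokine. Without depth matching 1075 genes were lower in WT, 737 in Pac1-/- and 153 in both, and weighting over 10 depth bins left 299 lower in Pac1-/-. Relative to the median gene, 429 were higher and 371 lower in WT, 28 lower in both, and 47 higher and 131 lower against cells with a cytokine. After thinning to 2000 UMIs, 342 were lower in WT, 229 in Pac1-/- and 34 in both, and 166 higher and 280 lower between genotypes. With the threshold at 1 Calca UMI, 74 were higher in both. In cells with a cytokine, a comparison added after the data were seen, 119 genes were higher and 63 lower, of which 40 and 1 were among those of the main comparison. Cells under the depth of a thinning setting were left out of its share. The share of Calca+ cytokine-zero cells was 4.31% (WT) and 3.26% (Pac1-/-) at 1000 UMIs, 5.12% and 4.46% at 1500, and 6.03% in Pac1-/- at 3000. Without thinning it was 5.37% in WT, and the difference of Pac1-/- minus WT turned from -0.95 to 0.19 points. Hspb1 in Pac1-/- turned to 0.36 with 1000 genes and 5% mitochondrial UMIs as the filter and to 0.58 with an ILC2 identity filter. The median of the effector cytokine list in WT turned to -0.00856 without called doublets and to -0.059 after thinning. The cause was not tested. Of the values for single genes 1097 stayed within their counting interval, 113 moved and 2 reversed. Those that stayed include values that a setting could hardly change. A new UMI minimum shifts only the median gene, and depth matching does not enter the ratios between genotypes.

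No paired analysis was possible because each genotype had 1 library, and for the same reason no library was left out in turn.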
